A study of Mus musculus with 12 samples.

Results

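A set of 40 genes of ribosome biogenesis and RNA polymerase I was followed in antigen-specific plasma cells that lacked or carried Zbtb32, whose product is a transcription factor with a BTB domain and zinc fingers. The genes were given as a list of symbols. Each was represented by the probe set that names this gene alone and has the highest mean over the 12 arrays. All 40 were found among the 19938 genes so measured, 1 of them, Utp11l, through its newer name Utp11, and all 40 lay above the filter on low values, 5.49 on the log2 scale. The tested arrays came from 6 samples of Zbtb32-/- cells and the comparison arrays from 6 samples of wild-type (Zbtb32 +/+) cells. In both groups, spleen cells of immune donors with the CD45.2 allele had been given to recipients with CD45.1, the recipients had been challenged with NP-CGG, a hapten on a carrier protein, and donor-derived plasma cells that bound NP had been sorted from the bone marrow 7 days later. The sort kept NP+ cells of donor origin (CD45.2+ and CD45.1-) that carried CD138, a plasma cell surface protein, and lacked CD11b and Ly6g of myeloid cells and B220 of B cells. The series text calls the samples biological replicates, and neither the ages of the mice nor the deleted part of Zbtb32 are given in the sources used here. All values are on the log2 scale and come from the authors' RMA, a method that subtracts background, makes arrays alike in distribution and summarises probes.

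Ribosomes are made in the nucleolus, where RNA polymerase I copies the ribosomal DNA into a long precursor. Small nucleolar ribonucleoproteins (snoRNPs) modify this precursor, the small subunit (SSU) processome cuts and folds the part that becomes the small (40S) subunit, and other factors assemble the large (60S) subunit. Plasma cells secrete antibody at a high rate and so depend on a large ribosome supply, and dividing cells raise ribosome production through factors such as Myc.

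The label of the cells was set against marker genes. All 12 plasma cell markers, among them Sdc1 (the gene of CD138), Prdm1 and Xbp1, lay at percentile 86.2 or above of the measured genes by their mean. Markers of other cells spread widely. The 12 neutrophil markers lay at percentiles 73.6 to 99.7 and the 11 B cell markers at 44.3 to 96.1. The 10 monocyte markers lay at 26.9 to 95.3, the 9 erythroid markers at 35.9 to 91.2 and the 11 T and NK cell markers at 8.57 to 65.4. S100a9, the highest neutrophil marker, averaged 12.55 and Pax5 of B cells, at percentile 92.6, averaged 9.38 on the log2 scale over the 12 arrays. RMA gives no value of 0, and the arrays cannot tell fewer cells of a type from less RNA per cell. Over all probe sets, the arrays that correlated least with the rest were wild-type replicates 2 and 6, at means of 0.933 and 0.938. The Zbtb32 probe set had 6.47, 6.53 and 6.73 (lowest, median and highest) in Zbtb32-/- arrays, against 6.39, 6.68 and 6.88 in wild-type arrays. These ranges overlapped, and without knowing which part of the gene was deleted the probe set does not check the labels.

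No gene of the set differed between the genotypes after adjustment. In limma's test over all 14993 genes above the filter, 0 of the 40 had an adjusted p under 0.05, and their adjusted p-values ran from 0.933 to 0.998 (across all genes 0.0% were called). At an unadjusted p under 0.05 there was 1 of the 40, Utp15, a share of 2.5%, against 4.28% of all genes, or 2.83% of all genes in its positive direction. That count was 0 without any 1 of Zbtb32-/- replicates 1, 2, 4 and 5 and wild-type replicate 2. Leaving out Zbtb32-/- replicate 6 raised it to 6, and leaving out wild-type replicates 3 or 6 to 4 or 2. The arrays of the genotypes overlapped for all 40 genes, where they did not overlap for 0.153% of all genes. Differences, Zbtb32-/- minus wild type, ran from -0.31 for Utp18 to 0.53 for Utp15, with standard errors from 0.06 to 0.32. The 95% interval of the difference lay within a 2-fold change in either direction for 37 of the 40 genes, the exceptions being Utp15, Nob1 and Tsr1, and within a 1.5-fold change for 26. The plot of differences shows these intervals, and all but that of Utp15 include 0.

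**Figure D1:**
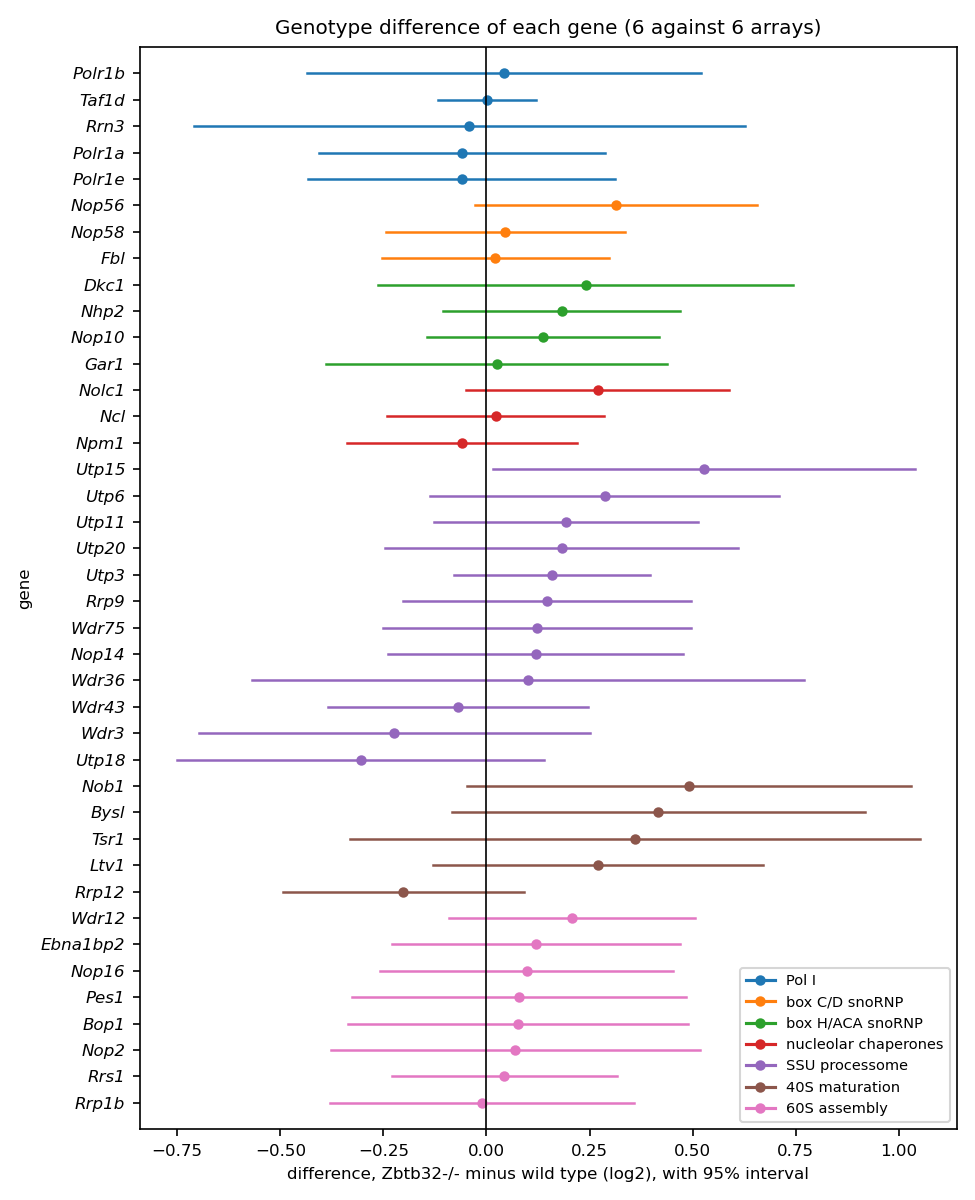
Difference in log2 RMA value, Zbtb32-/- minus wild type, for each of the 40 genes (points), with the 95% interval from limma (lines) over 6 against 6 arrays, coloured by role. The points run from -0.31 (Utp18) to 0.53 (Utp15), and 39 of the 40 lines cross 0.

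The direction was mostly positive. Over all genes tested, the median difference was larger at higher levels, and whether level bears on the differences of the 40 genes was not tested. A positive difference was found for 31 of the 40 genes (77.5%), with a median of 0.10 and a mean of 0.11, which is below the spread between arrays: the mean over the 40 genes was 8.77 ± 0.18 in Zbtb32-/- and 8.66 ± 0.17 in wild-type arrays (SD, n = 6 each). Among all genes tested, 52.9% had a positive difference, with a median of 0.01. Of the 3440 genes whose mean lay between 7.82 and 9.37, the lower and upper quartiles of the set's levels, 73.1% were positive. Their median was 0.11. The 77.5% covers all 40 genes, also those outside this range, and the share of the set within it was not computed. In 10 bins of mean level, the median over all genes was -0.05 in the lowest bin and 0.13 in the highest. When quantile normalization was renewed over the 12 arrays, 20 of the 40 genes were positive, their mean difference was 0.03 and their median 0.003, against 47.5% of all genes positive. The mean difference of the 40 genes was 0.18 without Zbtb32-/- replicate 6 and 0.07 without wild-type replicate 5. In replicates 1 to 3 alone it was 0.07, with 25 genes positive, and in replicates 4 to 6 alone 0.15, with 32 genes positive.

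**Figure D2:**
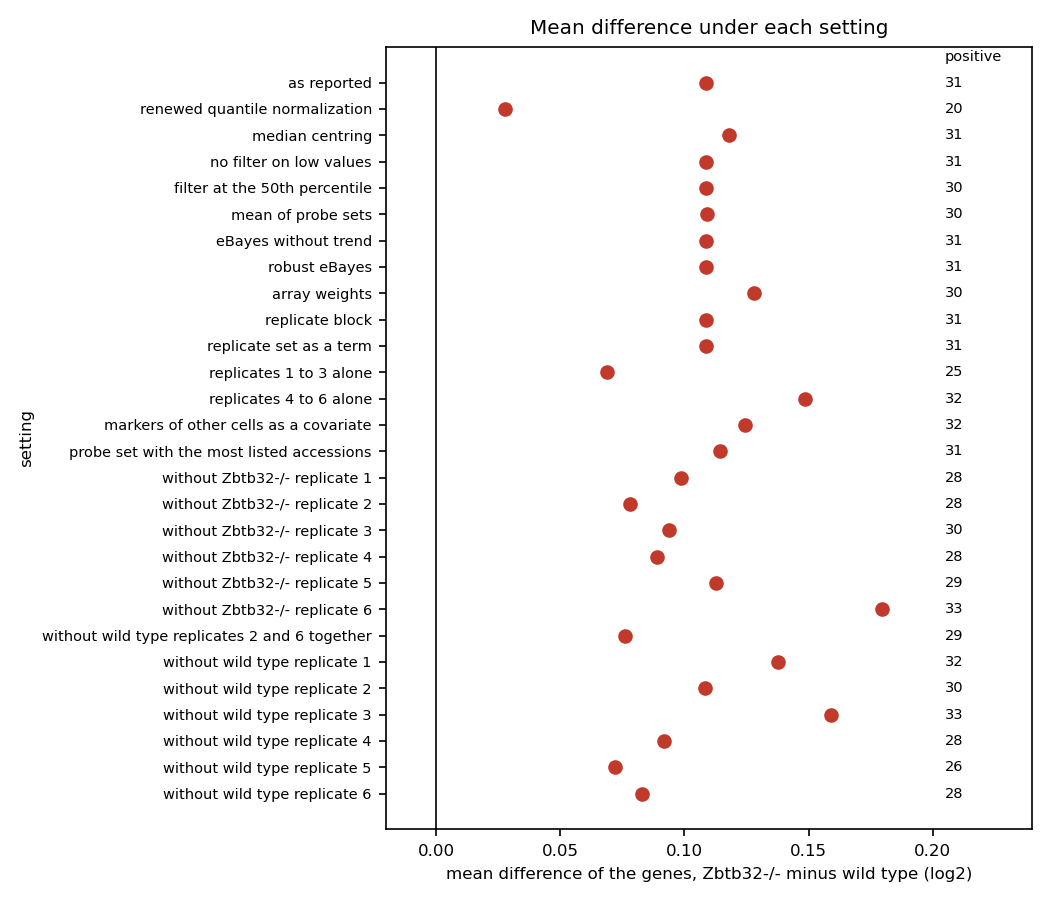
Mean difference of the 40 genes (log2, Zbtb32-/- minus wild type) as reported and under each of 27 alternatives (points), with the number of genes with a positive difference at the right. The mean stays above 0 in each, from 0.03 with 20 positive genes after renewed quantile normalization to 0.18 with 33 without Zbtb32-/- replicate 6.

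**Figure D3:**
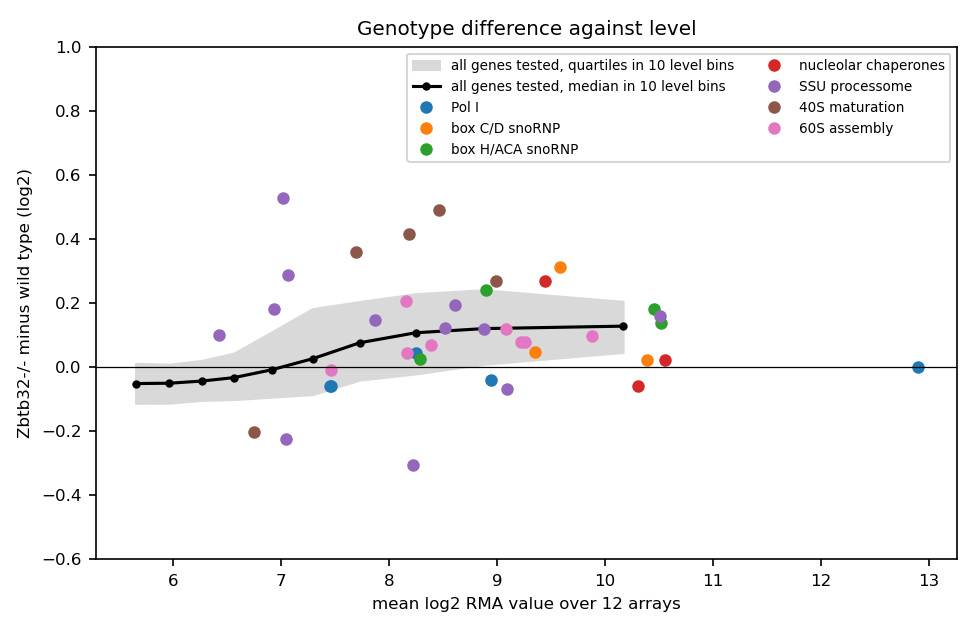
Difference (log2, Zbtb32-/- minus wild type) of each of the 40 genes, coloured by role, against its mean log2 RMA value over the 12 arrays. The black line joins the medians of all 14993 genes in 10 bins of level, from -0.05 in the lowest to 0.13 in the highest, and the grey band runs from the lower to the upper quartile of each bin.

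Promoters of the genes were read from RefSeq (mouse build GRCm38.p6) in a window from 250 bases before to 50 bases after the annotated start, and 32 of the 40 genes had an entry. The E-box CACGTG, the sequence that Myc and Max bind, was found in 8 of the 32, against 8.91% of 17491 protein-coding genes with an entry. These 8 were Ltv1, Nop2, Pes1, Rrn3, Tsr1, Utp18, Utp20 and Wdr43. The ETS motif CCGGAAGT was found in 9 (28.1%, against 5.69%) and its core CGGAAG in 17 (53.1%, against 23.5%). The GC box GGGCGG was found in 24 (against 49.2%), CCAAT in 13 (40.6%, against 42.3%) and TATAAA in 2 (6.25%, against 14.8%). Of the other motifs searched, ACTACA was found in 10 (31.2%, against 11.8%), and TGCGCA, ATGGCGGC and TCTCGCGA in 3 each (9.38%), against 1924, 612 and 278 of the 17491 genes. Longer motifs of the factors NRF1 and YY1 were found in 0 members, against 1.47% and 1.41% of genes. All 12 motifs were searched on both strands, CGGAAG lies within CCGGAAGT, ATGGCGGC overlaps the longer YY1 motif, and a gene with several starts counted once. A match is a string of letters and no evidence of binding. The median genotype difference was 0.07 for the 8 genes with CACGTG, 5 of them positive, and 0.12 for the 24 without it, 20 of them positive.

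The 250 bases before the start are shown for 5 genes: Nop56 and Utp15, which the results below turn on, and Nop2, Rrn3 and Utp18, whose E-boxes lie before the start. Capitals mark the E-box, the GC box and the CCAAT motif on either strand, and none of the 5 stretches holds a whole CCGGAAGT. The windows are chr2:130274162-130274411 for Nop56 on the forward strand, chr13:98262993-98263242 for Utp15 on the reverse strand, chr6:125131633-125131882 for Nop2 on the forward strand, chr16:13780449-13780698 for Rrn3 on the forward strand and chr11:93885767-93886016 for Utp18 on the reverse strand.
Nop56: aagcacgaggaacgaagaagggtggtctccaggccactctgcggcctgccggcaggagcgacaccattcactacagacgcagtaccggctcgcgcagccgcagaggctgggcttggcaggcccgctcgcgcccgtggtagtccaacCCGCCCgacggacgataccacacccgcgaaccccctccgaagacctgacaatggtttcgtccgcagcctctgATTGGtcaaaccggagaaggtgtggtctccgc
Utp15: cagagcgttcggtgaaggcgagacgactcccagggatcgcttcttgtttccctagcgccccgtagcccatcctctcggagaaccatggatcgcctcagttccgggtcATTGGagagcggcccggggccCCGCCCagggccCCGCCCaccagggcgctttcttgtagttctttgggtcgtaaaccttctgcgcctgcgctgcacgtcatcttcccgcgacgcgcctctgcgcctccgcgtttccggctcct
Nop2: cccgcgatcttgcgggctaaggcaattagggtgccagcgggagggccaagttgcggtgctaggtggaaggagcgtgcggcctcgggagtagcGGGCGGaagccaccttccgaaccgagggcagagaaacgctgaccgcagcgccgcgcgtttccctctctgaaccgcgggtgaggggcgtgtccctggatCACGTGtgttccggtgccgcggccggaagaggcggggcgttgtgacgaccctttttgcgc
Rrn3: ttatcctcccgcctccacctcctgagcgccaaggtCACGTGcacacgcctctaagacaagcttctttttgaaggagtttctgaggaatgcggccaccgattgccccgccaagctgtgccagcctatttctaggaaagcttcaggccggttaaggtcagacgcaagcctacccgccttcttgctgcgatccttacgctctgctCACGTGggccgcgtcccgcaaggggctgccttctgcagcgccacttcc
Utp18: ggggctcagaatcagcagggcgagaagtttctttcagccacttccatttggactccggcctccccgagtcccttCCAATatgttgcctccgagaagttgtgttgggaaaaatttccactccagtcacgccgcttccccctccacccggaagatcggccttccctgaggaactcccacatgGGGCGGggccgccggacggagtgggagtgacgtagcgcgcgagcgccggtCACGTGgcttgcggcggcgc
Nop56 has 1 GC box and 1 CCAAT motif in this window, and Utp15 has 2 GC boxes and 1 CCAAT motif. The E-box begins 60 bases before the start in Nop2 and 20 bases before it in Utp18, and Rrn3 has 2 E-boxes, at 215 and 48 bases before the start.

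Genes of RNA polymerase I and its factors had small differences. Of 5 genes, 2 had a positive and 3 a negative difference, from -0.06 to 0.04 with the brightest probe sets, and 0 passed. Polr1a, the largest catalytic subunit, had a lowest, median and highest value of 7.06, 7.42 and 7.81 in Zbtb32-/- arrays, against 7.08, 7.53 and 7.84 in wild-type arrays. The ranges lay on top of each other, at a difference of -0.06 (SE 0.16, limma adjusted p = 0.974). Polr1e, a subunit of the polymerase's initiation and elongation module, had 6.70, 7.45 and 7.85 in Zbtb32-/- arrays, against 7.36, 7.41 and 7.81 in wild-type arrays (difference -0.06, SE 0.17, adjusted p = 0.975). Its Zbtb32-/- arrays spread more widely, with replicate 6 the lowest. The catalytic subunit Polr1b differed by 0.04. Rrn3, which brings the polymerase to its promoter, differed by -0.04, with 8.58, 8.98 and 9.11 in Zbtb32-/- arrays, against 7.38, 9.19 and 9.69 in wild-type arrays. The lowest wild-type value of Rrn3 was that of replicate 6, and the other 5 wild-type arrays lay at 8.86 or above.

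Taf1d, a subunit of the promoter selectivity factor of polymerase I, is a case where the choice of probe set decides the value. Its brightest probe set had the smallest SD of the 40 genes over the 12 arrays, 0.09, with 12.80, 12.92 and 12.99 in Zbtb32-/- arrays, against 12.72, 12.92 and 13.004 in wild-type arrays, and a difference of 0.002 (SE 0.06, adjusted p = 0.998). That probe set is annotated with 1 sequence record. The probe set of Taf1d with the most records, 11, gave 10.32 ± 0.33 in Zbtb32-/- and 10.10 ± 0.34 in wild-type arrays (SD, n = 6 each), a difference of 0.23. In all, 9 probe sets name Taf1d, 4 of them with identical values, and their differences ran from -0.33 to 0.25. The Taf1d gene span holds 6 small nucleolar RNA genes in the RefSeq annotation, and which transcripts the single-record probe sets measure was not tested.

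The box C/D snoRNP, which adds methyl groups to ribosomal RNA, had positive differences in 3 of 3 genes, and 0 passed. Nop56, a scaffold protein of this particle, had 9.23, 9.83 and 9.94 in Zbtb32-/- arrays, against 9.13, 9.37 and 9.89 in wild-type arrays. In 5 of the 6 Zbtb32-/- arrays the value exceeded the wild-type mean, while replicate 6, at 9.23, lay near the low wild-type arrays 4 to 6. Its difference was 0.31 (SE 0.16, 95% interval -0.03 to 0.66, adjusted p = 0.933), or 1.24-fold, and it was 0.42 without Zbtb32-/- replicate 6 (adjusted p = 0.728) and 0.19 after renewed quantile normalization. Nop58, the partner scaffold, had 8.97, 9.34 and 9.76 in Zbtb32-/- arrays, against 9.21, 9.33 and 9.43 in wild-type arrays (difference 0.05, SE 0.13, adjusted p = 0.976). The medians were close, and the Zbtb32-/- arrays spread to both sides of the wild-type range. Fbl, the methyltransferase fibrillarin, differed by 0.02 in its brightest probe set, at 10.40 ± 0.14 in Zbtb32-/- and 10.38 ± 0.27 in wild-type arrays. Its other probe set gave -0.24, at 7.79 ± 0.21 in Zbtb32-/- and 8.04 ± 0.29 in wild-type arrays, so its direction depends on the probe set.

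In the box H/ACA snoRNP, which turns uridine into pseudouridine and also takes part in telomerase, 4 of 4 genes had a positive difference, from 0.02 for Gar1 to 0.24 for the synthase Dkc1, and 0 passed. Nhp2 had 10.13, 10.53 and 10.90 in Zbtb32-/- arrays, against 10.07, 10.44 and 10.55 in wild-type arrays (difference 0.18, SE 0.13, adjusted p = 0.933). Nop10 had 10.29, 10.59 and 10.98 in Zbtb32-/- arrays, against 10.22, 10.39 and 10.80 in wild-type arrays (difference 0.14, SE 0.13, adjusted p = 0.933). For both core proteins the genotypes overlapped over most of their range, and without Zbtb32-/- replicate 4, the highest array, the differences were 0.11 for Nhp2 and 0.06 for Nop10.

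Among the abundant nucleolar proteins that chaperone ribosome assembly, Nolc1 had 9.25, 9.58 and 9.93 in Zbtb32-/- arrays, against 8.99, 9.42 and 9.54 in wild-type arrays. Nolc1 binds snoRNPs, and its difference was 0.27 (SE 0.15, adjusted p = 0.933), with 5 of 6 Zbtb32-/- arrays above the wild-type mean. In replicates 1 to 3 the difference of Nolc1 was 0.08, and in replicates 4 to 6 0.46. Npm1, nucleophosmin, had 10.05, 10.26 and 10.50 in Zbtb32-/- arrays, against 9.95, 10.36 and 10.63 in wild-type arrays (difference -0.06, SE 0.13, adjusted p = 0.965). Ncl, nucleolin, differed by 0.02. The chaperone values thus had no common direction, and 0 of the 3 passed.

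The SSU processome, a large particle known mainly from yeast, held both ends of the range. Of its 12 genes, 9 had a positive and 3 a negative difference, 0 passed and 1 had an unadjusted p under 0.05. Utp15, a subunit that links the processome to transcription of the ribosomal DNA, had 6.78, 7.40 and 7.77 in Zbtb32-/- arrays, against 5.79, 6.97 and 7.10 in wild-type arrays. All 6 Zbtb32-/- values exceeded the wild-type mean, 4 of them above the highest wild-type array, while replicates 3 and 6, both at 6.78, lay within the wild-type range, and wild-type replicate 2 was the lowest. The difference was 0.53 (SE 0.24, 95% interval 0.02 to 1.04), or 1.44-fold, with a limma unadjusted p = 0.0441 and adjusted p = 0.933. Without wild-type replicate 2 the difference of Utp15 was 0.34, and after renewed quantile normalization it was 0.51 (unadjusted p = 0.0532). Replicates 1 to 3 alone gave 0.71 and replicates 4 to 6 alone 0.34. Utp18 lay on the other side, with 7.82, 8.11 and 8.28 in Zbtb32-/- arrays, against 7.74, 8.32 and 9.29 in wild-type arrays (difference -0.31, SE 0.21, adjusted p = 0.933). None of the 6 Zbtb32-/- values of Utp18 exceeded the wild-type mean, and the highest wild-type value was that of replicate 4, without which the difference was -0.12. Utp18 belongs to the UtpB complex of the processome with Utp6, Wdr3 and Wdr36, which differed by 0.29, -0.22 and 0.10. The UtpA subunits Wdr43 and Wdr75, which share their complex with Utp15, differed by -0.07 and 0.12. Utp3, Utp11, Utp20, Nop14 and Rrp9, a protein of the U3 snoRNP, had differences from 0.12 to 0.19.

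Factors of late small subunit maturation had the largest median difference of the 7 role groups, 0.36, with 4 of 5 genes positive and 0 passing. That share, 80.0%, stands against 73.1% of genes in the middle level range of the 40, whose median difference was 0.11. Rrp12 and Tsr1, at means of 6.75 and 7.69, lie below that range. The median SD of the late factors over the 12 arrays, 0.47, was also the largest of the role groups. Relative to the 12 arrays, the mean over the 5 genes was 0.13 ± 0.30 in Zbtb32-/- and -0.13 ± 0.34 in wild-type arrays (SD, n = 6 each). Nob1, the endonuclease that makes the final cut in the small subunit's RNA, had 8.10, 8.63 and 9.20 in Zbtb32-/- arrays, against 7.43, 8.19 and 9.08 in wild-type arrays. Its difference was 0.49 (SE 0.25, adjusted p = 0.933), with 5 of 6 Zbtb32-/- values above the wild-type mean. Within replicates 1 to 3 the difference of Nob1 was 0.22, and within replicates 4 to 6 0.76. Bysl, bystin, had 7.46, 8.54 and 8.77 in Zbtb32-/- arrays, against 7.53, 7.995 and 8.48 in wild-type arrays (difference 0.42, SE 0.23, adjusted p = 0.933). Zbtb32-/- replicate 6 had the lowest value of Bysl on any array, and without it the difference was 0.60 (adjusted p = 0.728). Tsr1, a GTPase-like assembly factor, had the largest SD of the 40 genes over the 12 arrays, 0.63, with 6.75, 8.05 and 8.33 in Zbtb32-/- arrays, against 6.92, 7.24 and 8.49 in wild-type arrays (difference 0.36, SE 0.32, adjusted p = 0.933). Without Zbtb32-/- replicate 6 the difference of Tsr1 was 0.58, and without wild-type replicate 1 it was 0.56. Ltv1 and Rrp12, which act in late assembly and export of the subunit, differed by 0.27 and -0.20.

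Of 8 genes of large subunit assembly, 7 had a positive difference, from 0.04 to 0.21, and 0 passed. Wdr12, which with Pes1 and Bop1 forms a complex needed for processing of the large subunit's RNA, had 8.04, 8.29 and 8.41 in Zbtb32-/- arrays, against 7.73, 8.06 and 8.39 in wild-type arrays (difference 0.21, SE 0.14, adjusted p = 0.933). Replicates 1 to 3 gave -0.01 and replicates 4 to 6 gave 0.42 for Wdr12, and the gene's other probe set gave 0.33. Its partners Pes1 and Bop1 each differed by 0.08. Ebna1bp2 had 8.77, 9.10 and 9.67 in Zbtb32-/- arrays, against 8.74, 9.08 and 9.15 in wild-type arrays (difference 0.12, SE 0.16, adjusted p = 0.948). Its highest value was that of Zbtb32-/- replicate 4, without which the difference was 0.01. Nop2, a methyltransferase of the large subunit's RNA, Nop16 and Rrs1 differed by 0.07, 0.10 and 0.04, and Rrp1b by -0.01. In this role group all 8 intervals lay within a 1.5-fold change.

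Arrays of one genotype differed by more than the genotypes did. In Zbtb32-/- replicate 6, 37 of the 40 genes lay below their own median over the 12 arrays, and in wild-type replicate 5, 33 did. At the other end, 37 genes lay above their own median in Zbtb32-/- replicate 2 and 33 in wild-type replicate 3. The share of all genes tested that lay above their own median ran from 43.5% to 59.5% in Zbtb32-/- and from 37.3% to 55.6% in wild-type arrays. Such a share was not computed for genes of a like level or for other pathway genes. For 29 of the 40 genes the lowest of the 12 arrays was Zbtb32-/- replicate 6 or one of wild-type replicates 4, 5 and 6. These arrays also had the lowest means over the same 40 genes, so the count follows in part from their choice. Its share over all genes was not computed. The mean over the 40 genes was 8.42 in Zbtb32-/- replicate 6 and 8.75 to 8.92 in the other 5 Zbtb32-/- arrays. In wild-type arrays it was 8.58, 8.48 and 8.54 in replicates 4, 5 and 6, and 8.81, 8.66 and 8.92 in replicates 1, 2 and 3. Late small subunit factors had the widest swing, at -0.47 in Zbtb32-/- replicate 6 and 0.32 in the highest Zbtb32-/- array, against -0.56 and 0.33 in the lowest and highest wild-type arrays (mean over the 5 genes minus their mean over the 12 arrays).

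**Figure D4:**
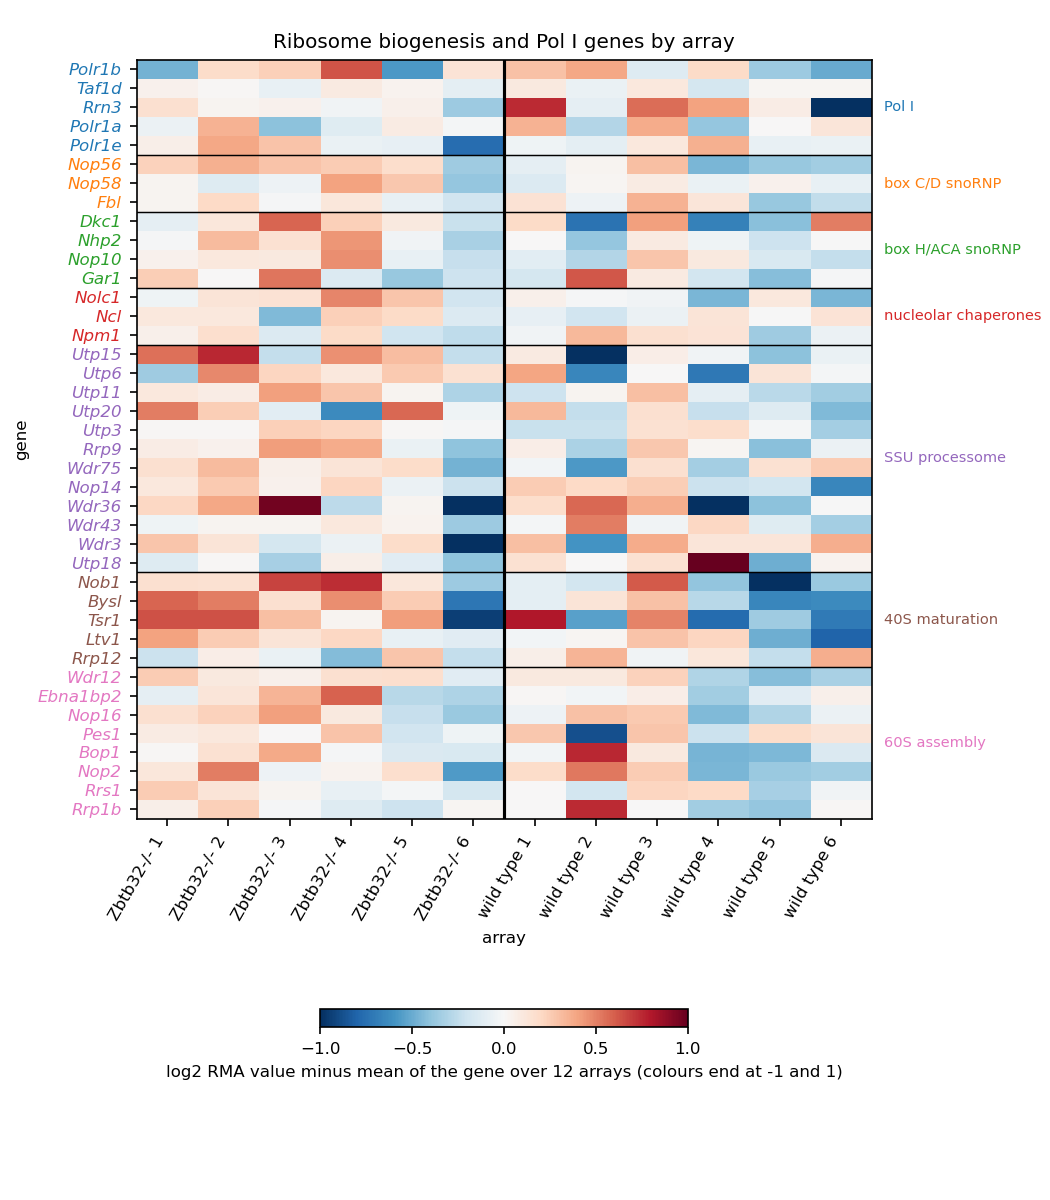
Each cell is the log2 RMA value of a gene on an array minus the gene's mean over the 12 arrays, with genes grouped by role and Zbtb32-/- arrays left of the line. Blue prevails in Zbtb32-/- 6, where 37 of 40 genes lie below their own median, and in wild type 5, where 33 do.

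Markers of plasma cells and of some other cells differed on these arrays. The 4 arrays with low means had the lowest means over the 12 plasma cell markers, 10.96 in Zbtb32-/- replicate 6 and 10.84, 11.10 and 11.14 in wild-type replicates 4, 5 and 6, where the other Zbtb32-/- arrays lay at 11.31 to 11.61 and the other wild-type arrays at 11.46 to 11.61. The 12 neutrophil markers averaged 12.20 in Zbtb32-/- replicate 6 and 9.08 to 10.70 in the other Zbtb32-/- arrays, and 10.99, 10.67 and 10.38 in wild-type replicates 4, 5 and 6 against 7.95 to 10.27 in the other wild-type arrays. The 10 monocyte markers averaged 7.84 in Zbtb32-/- replicate 6 and 7.25 to 8.05 in wild-type replicates 4 to 6, where the other Zbtb32-/- arrays lay at 6.42 to 7.15 and the other wild-type arrays at 6.38 to 6.77. The 11 B cell markers averaged 8.34 in Zbtb32-/- replicate 6, below the 8.36 of Zbtb32-/- replicate 2, and 8.70 to 8.90 in wild-type replicates 4 to 6, against 7.33 to 8.46 in the other wild-type arrays. The 9 erythroid markers were not raised on the low arrays, at 7.45 in Zbtb32-/- replicate 6 against 6.89 to 7.75 in the other Zbtb32-/- arrays, and 6.80 to 7.14 in wild-type replicates 4 to 6 against 6.16 to 8.14 in the other wild-type arrays. The 11 T and NK cell markers averaged 5.98 in Zbtb32-/- replicate 6, against 5.59 to 5.91 in the other Zbtb32-/- arrays. In wild-type replicates 4, 5 and 6 they averaged 6.09, 5.75 and 6.65, against 5.61 to 6.01 in the other wild-type arrays. Zbtb32-/- replicates 2 and 5 had neutrophil means of 10.65 and 10.70, with means over the 40 genes of 8.92 and 8.75. Those neutrophil means lay below that of Zbtb32-/- replicate 6 and within the range of wild-type replicates 4 to 6. With each array's mean over the markers of T and NK cells, erythroid cells, monocytes and neutrophils as a covariate, the mean genotype difference of the 40 genes was 0.12, with 32 positive and 0 passing. This fit gives only a genotype difference, and its covariate left out the B cell markers. The part of these cells in the differences between arrays was not tested.

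**Figure D5:**
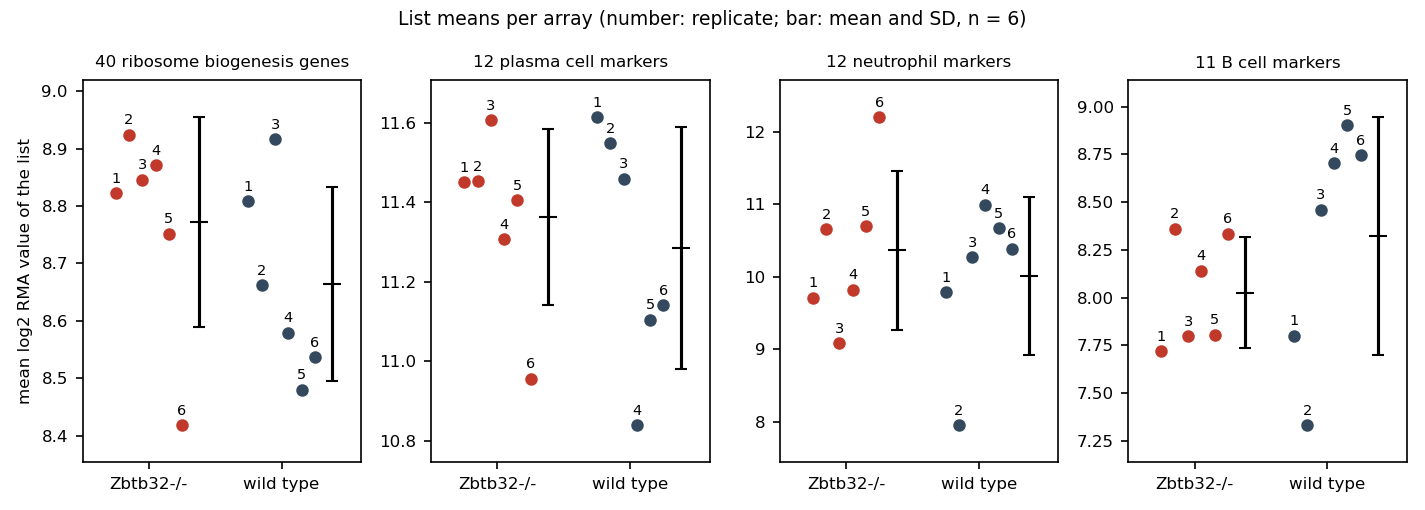
Mean log2 RMA value per array over the 40 ribosome biogenesis genes and over the markers of plasma cells, neutrophils and B cells, with the replicate number above each point and the mean and SD of each genotype (n = 6) as a bar. Zbtb32-/- replicate 6 has the lowest mean of the 40 genes, 8.42, and the highest mean of the neutrophil markers, 12.20.

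Replicates 4 to 6 lay below replicates 1 to 3 for most of the genes. This division was chosen from earlier results of these data, and no label names it as a batch. Its p-values are thus no independent test of the division. In a limma fit with genotype and replicate set as terms, 34 of the 40 genes had a negative difference, replicates 4 to 6 minus 1 to 3. Their median was -0.17, against a median of -0.06 over all genes. The share of all genes with a negative difference was not computed. With the filter on low values at the 50th percentile, which leaves 39 of the genes, the medians were -0.165 for these and -0.13 for all genes. After adjustment 2 of 40 passed, both lower in replicates 4 to 6, a share of 5.0%, where 6.52% of all genes passed and 4.47% passed as lower. Wdr36, of the UtpB complex, was 5.99 ± 0.47 in replicates 4 to 6, against 6.88 ± 0.29 in replicates 1 to 3 (SD, n = 6 each), a difference of -0.89 (adjusted p = 0.0281). Its values ran from 5.41 to 6.46 in replicates 4 to 6 and from 6.61 to 7.39 in replicates 1 to 3. The mean of Wdr36 over the 12 arrays, 6.43, was the lowest of the 40 genes and lay below the 50th percentile filter, 6.53. Nop16, a nucleolar factor of the large subunit, was 9.66 ± 0.20 in replicates 4 to 6, against 10.10 ± 0.15 in replicates 1 to 3, a difference of -0.43 (adjusted p = 0.0421). The call on Nop16 ended after renewed quantile normalization (adjusted p = 0.130) and after median centring (adjusted p = 0.0615). Renewed normalization left 27 of 40 genes negative with a median of -0.05, against -0.03 over all genes. No gene passed without any 1 of Zbtb32-/- replicates 3 and 6 and wild-type replicates 1, 3, 4 and 5. The genotype difference was not shown to depend on the replicate set: 0 of the 40 genes passed in the limma interaction test and 0 had an unadjusted p under 0.05, against 0.0% and 3.86% of all genes.

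A further list of pathway genes was read the same way. It held 93 symbols, of which 90 were measured, with 71 positive and 19 negative differences, a median of 0.13 and a mean of 0.14. After adjustment 0 of the 90 passed, and 8 (8.89%) had an unadjusted p under 0.05, all positive, against 4.28% of all genes and 5.44% of genes in the middle level range of the 40. Renewed quantile normalization left 57 of 90 positive, at a mean of 0.06, with 3 at an unadjusted p under 0.05. Leaving out 1 array put that number between 3 and 12: it was 3 without any 1 of Zbtb32-/- replicates 1, 3 and 4 and wild-type replicate 5, 4 without Zbtb32-/- replicate 2 or wild-type replicate 4 or 6, 5 without Zbtb32-/- replicate 5, and 12 without wild-type replicate 3. Pelp1, a protein of a complex that releases large subunit precursors, had 8.001, 8.37 and 8.68 in Zbtb32-/- arrays, against 7.48, 7.86 and 8.08 in wild-type arrays (difference 0.53, SE 0.15, adjusted p = 0.933). Riok1, a kinase of late small subunit maturation, had 8.71, 8.94 and 9.10 in Zbtb32-/- arrays, against 7.45, 8.37 and 8.79 in wild-type arrays (difference 0.66, SE 0.22, adjusted p = 0.933). Nol12, a nucleolar RNA-binding protein, differed by 0.37 (SE 0.15, adjusted p = 0.933). On the negative side Tex10, a partner of Pelp1, differed by -0.20, Cd3eap, a polymerase I subunit, by -0.14 and Mdn1, an ATPase that remodels large subunit precursors, by -0.16 (adjusted p = 0.933 for each). Between the replicate sets 4 of the 90 passed (4.44%), Nat10, Wdr74, Eif6 and Nmd3, all lower in replicates 4 to 6.

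Several of the 40 genes carry small nucleolar RNA genes within their span. In the RefSeq annotation 7 of 40 do (17.5%), against 1.7% of 21896 protein-coding genes: Taf1d with 6, Nop56 with 5, Nop58 with 4, Wdr43 with 3, Ncl with 2, and Dkc1 and Tsr1 with 1 each. Of these 22 RNAs, 4 have a probe set that names them alone and 2 lay above the filter. Snord57 within Nop56 differed by -0.16 (SE 0.34, adjusted p = 0.965) and Snord53 within Wdr43 by 0.38 (SE 0.40, adjusted p = 0.936), against 0.31 for Nop56 and -0.07 for Wdr43.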

How the data were processed

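RNA from sorted bone marrow plasma cells was amplified and labelled with biotin for 1 Affymetrix mouse gene array per sample, per the labels' protocols. The deposited values are log2, from the RMA step of Affymetrix Expression Console, which the submitters' processing notes name; the sources used here give no version for it. Low values are compressed by RMA, which also hides differences in total RNA. The notes do not say that the arrays were normalized as 1 set.

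Of 35556 probe sets, 21789 name 1 gene, 1621 several and 12146 are unnamed here. Genes above the 25th percentile of single-gene probe set means, 5.49, entered limma 3.58.1 (R 4.3.3) with lmFit, then eBayes with a trend, and genotype as the only term; p-values were adjusted by Benjamini-Hochberg over 14993 genes at a threshold of 0.05. The fit was tested on simulated data. Tables were joined in pandas 2.3.3 under Python 3.11.15 and plots drawn in matplotlib 3.10.9. Precision is limited by the number of arrays: 95% intervals reached a median of 0.31 log2 units to either side. Members and lists were chosen with earlier results of these data known, so a score over them has no p. Every member may be named. Lowest, median and highest values per genotype were given for Nop56, Utp15 and the 2 members per role with the smallest p. They were also given for the members with the largest and smallest SD, and for Rrn3, which was added after its values were seen. Members past the threshold between the replicate sets were given by mean and SD per set. Of the other pathway genes, the 3 with the smallest p of each sign were named. Same-numbered replicates correlated at 0.02 to 0.47 in their deviations from the genotype means, so the numbers were not taken as pairs. The alternatives were other normalizations, filters, probe set rules, variance settings, array weights, blocks, a covariate for markers of other cells and leaving out arrays.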

Additional observations from a re-analysis of the deposited data

Results flagged for a closer look

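In each genotype the highest and the lowest array were compared with the rest by their gap to the nearest array over the whole range, for the 40 genes and their mean. Of 82 groups of 6 arrays, 10 had an array that stood apart beyond Dixon's critical value for 6. Chance gives about 1 in 20, and genes that vary together between arrays are not independent. Zbtb32-/- replicate 6 was the low array in 6 of the genes' groups: Rrn3 at 8.58, Nop56 at 9.23, Wdr3 at 6.03, Wdr43 at 8.73, Wdr75 at 8.05 and Bysl at 7.46. It was also low in the mean over the 40 genes, at 8.42, where the next Zbtb32-/- array had 8.75. Wild-type replicate 6 was low in Rrn3, at 7.38, where the next wild-type array had 8.86. Wild-type replicate 2 was low in Wdr3, at 6.45, and high in Rrp1b, at 8.21, where the next arrays had 7.16 and 7.47.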

How the results depend on the processing

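In all 27 alternatives 0 of the 40 genes and 0 of the 90 other pathway genes passed the adjusted threshold between genotypes. Leaving out 1 array at a time put the mean difference of the 40 genes between 0.07 and 0.18 and their number of positive differences between 26 and 33. Renewed quantile normalization lowered that number to 20, and was the setting that moved it by over 1.5 times. The number at an unadjusted p under 0.05 lay between 0 and 6 when 1 array was left out, the highest without Zbtb32-/- replicate 6. The replicate block changed no adjusted call, with 3 of the 40 genes at an unadjusted p under 0.05 and a mean difference of 0.11, and of the 6 pairs 2 correlated best with their own number. Between the replicate sets 1 gene passed after renewed normalization, median centring or the filter at the 50th percentile, which leaves Wdr36 untested, and 0 to 3 on leaving out single arrays. The interaction had 0 in each of the 19 alternatives run for it, which did not include array weights, the replicate block, the marker covariate, the probe sets with the most records or leaving out 2 arrays together.

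Small differences changed sign, and the cause was not tested. In replicates 1 to 3, Polr1e was 0.26, Nop58 -0.039, Wdr12 -0.0055 and Taf1d -0.0533, and in replicates 4 to 6, Polr1a was 0.0671 and Npm1 0.0064. Renewed normalization gave Nop58 -0.0657, Taf1d -0.022 and Nop16 -0.0169, array weights gave Polr1e 0.0519 and Taf1d -0.0082, and leaving out wild-type replicates 2 and 6 together gave Taf1d -0.0108. With 1 array left out, the lowest and highest values were -0.1422 and 0.0159 for Polr1a, -0.1441 and 0.0852 for Polr1e, -0.0305 and 0.1276 for Nop58, -0.0336 and 0.023 for Taf1d, and -0.0898 and 0.3137 for Wdr36. RMA compresses differences of low genes, and the genes named here ran from a mean of 6.43 (Wdr36) to 12.90 (Taf1d). Whether compression bears on the sign changes was not tested.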
